A study of Rattus norvegicus with 12 samples.

Results

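Galectins are sugar-binding proteins that recognise galactose at the ends of the glycan chains of cell-surface and secreted glycoproteins. The 5 galectins described here, Lgals1, Lgals3, Lgals7, Lgals8 and Lgals9, are the rows of a rat cornea expression table that carry those symbols, 5 of 30452 genes. The table holds FPKM (fragments per kilobase of gene, scaled to the library's depth) for 12 libraries in 4 groups of 3. The groups are labelled SF/HA-HEP-PAM, SF/HA, Alkali-burned and Control. The series concerns a silk-based ocular patch, and SF/HA-HEP-PAM and SF/HA are read here as forms of it, although the labels spell out none of these letters. Strain, sex, age, time after the burn, whether the corneas under a patch had been burned and whether replicates are separate animals are not given in the sources used here. P-values therefore measure only the spread between these libraries, which may be technical.

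Galectins are made in the cytosol and leave the cell without a signal peptide. Outside the cell they crosslink glycoproteins such as mucins, integrins and laminins; inside it, galectin-3, galectin-8 and galectin-9 gather on damaged vesicles, whose inner-face glycans become exposed. In the cornea, galectin-3 binds the membrane mucins of the epithelial surface, and galectin-3 and galectin-7 are known from mouse studies to speed the closure of epithelial wounds. Galectin-1 is typical of fibroblasts and other mesenchymal cells and is known for damping T-cell responses. Galectin-9 is an interferon-inducible ligand of the receptor Havcr2 (TIM-3).

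On rat build mRatBN7.2, Lgals1 (ENSRNOG00000009884) lies on the plus strand of chromosome 7 from 110481392 to 110488345. Lgals3 (ENSRNOG00000010645) lies on the plus strand of chromosome 15 from 20607692 to 20632025. Lgals7 (ENSRNOG00000020380) is a short gene of 1764 bases on the plus strand of chromosome 1, from 84150252 to 84152015. Lgals8 (ENSRNOG00000018046) lies on the plus strand of chromosome 17 from 58028105 to 58052764 and overlaps Heatr1 on the other strand, which stayed at or under 0.171 FPKM in every library. Lgals9 (ENSRNOG00000012681) lies on the minus strand of chromosome 10 from 63907018 to 63930045. Each position spans the whole gene, introns included.

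The sequences just upstream of Lgals9 and of Lgals3bp, the gene of a secreted glycoprotein that binds galectins, are shown because these genes had their lowest group mean in Control, and because both hold a match to the interferon-stimulated response element. The motif searched was GAAA, any 2 bases and again GAAA, on both strands, and its match is in capitals. The 100 bases before each start, from RefSeq on build GRCr8, read 5′ to 3′ on the gene's own strand. Lgals9 is at chr10:64428071-64428170 and Lgals3bp at chr10:104127849-104127948, both on the minus strand.
Lgals9: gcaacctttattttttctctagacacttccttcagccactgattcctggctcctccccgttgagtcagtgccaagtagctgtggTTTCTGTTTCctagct
Lgals3bp: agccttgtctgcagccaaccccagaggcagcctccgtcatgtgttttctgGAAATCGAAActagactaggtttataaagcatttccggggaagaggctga
The Lgals9 match begins 16 bases upstream of the start and lies on the opposite strand, and the Lgals3bp match begins 50 bases upstream. Of 33469 rat windows of 250 bases upstream of a gene start, 3.41% held this motif. The neighbouring galectin gene Lgals5 held the same match as Lgals9, 53 bases upstream, although it had at most 2 reads in any library. Lgals9 also had the AP-1 motif TGANTCA 40 bases upstream, as did 6.34% of windows. Lgals3bp had the TATA box TATAAA 28 bases upstream, found in 12.9% of windows. Lgals8 held the GC box GGGCGG, read on the opposite strand, at 95 and 52 bases upstream; 30.5% of windows had it. The NF-kB motif, GGGACT directly followed by TTCC, was present in 0.0956% of windows and not in these. A match describes the letters and does not show that a factor binds there. Lgals7, Lgals8 and Lgals9, 3 of the 5 galectins, were matched in the table of upstream sequences, as were 8 of the 12 galectin-family symbols searched.

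A neighbouring galectin gene, Lgals5, shares sequence with Lgals9 at the DNA level. The longest run identical upstream of both genes was 82 bases, at chr10:64428170-64428251 for Lgals9 and chr10:64355306-64355387 for Lgals5, and it is printed in capitals throughout.
Lgals9: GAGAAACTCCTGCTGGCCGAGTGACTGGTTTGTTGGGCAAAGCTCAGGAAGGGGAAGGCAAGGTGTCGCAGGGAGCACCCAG
Lgals5: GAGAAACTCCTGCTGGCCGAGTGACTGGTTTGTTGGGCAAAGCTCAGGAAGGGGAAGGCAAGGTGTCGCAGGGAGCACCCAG
Lgals5 itself had at most 2 reads in any library. This run lies upstream of both starts, and the transcribed sequences of the 2 genes were not compared. If those hold near-identical parts, reads could have been shared or dropped when they were counted. The level of Lgals9 would be uncertain to that extent.

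Depth was 1245606 to 2117399 reads in the SF/HA-HEP-PAM libraries, 499061 to 957696 in SF/HA, 1173159 to 1265298 in Alkali-burned and 486264 to 1015788 in Control, as recovered from the deposited values. The corneal epithelial keratin Krt12 stood at 1033 to 3655 FPKM and the stromal proteoglycan Kera at 49.2 to 794 FPKM over the 12 libraries, so the markers of the labelled tissue were present. The T-cell marker Cd3e was 0 in every Control library and at most 0.359 FPKM elsewhere. Control replicate 1 was unlike its group, with the lowest Krt12 of its group at 1697 FPKM and the highest Kera at 794 FPKM. In whole corneas, fewer cells of a type and less RNA per cell cannot be told apart.

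The galectins fell into a high and a low set. Averaged over the 12 libraries, Lgals7 stood at 176 FPKM, Lgals1 at 83.1 FPKM and Lgals3 at 54.1 FPKM. Lgals9 averaged 1.41 FPKM and Lgals8 1.0 FPKM. FPKM here divides by the length of the whole gene, so a galectin with long introns is placed low: in RPM, reads scaled to depth without length, Lgals3 led with 1318, followed by Lgals1 with 578, Lgals7 with 310, Lgals9 with 32.5 and Lgals8 with 24.7. The 3 high galectins had at least 1 FPKM in all 12 libraries, while Lgals8 reached it in 6 and Lgals9 in 5. Genes with at least 1 FPKM in 3 or more libraries were tested, 6112 in all, and the 5 galectins were among them. Lgals9 passed through the other groups, since no Control library reached 1 FPKM.

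**Figure D1:**
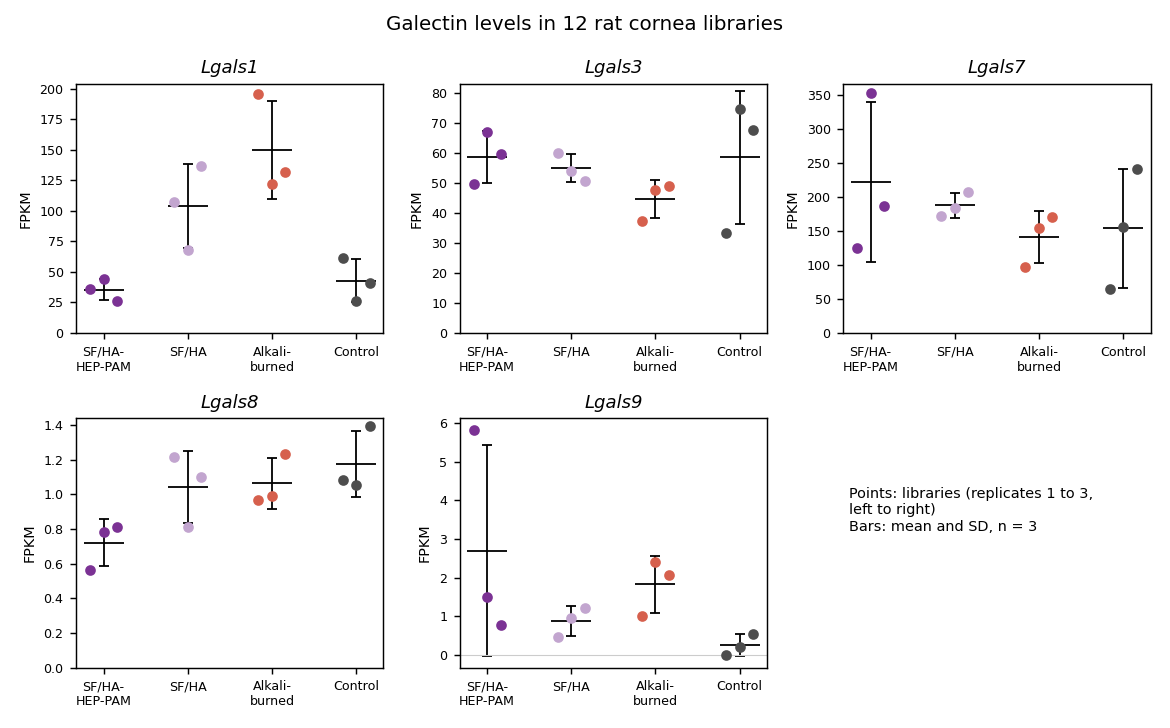
FPKM of the 5 galectins in each library (points), with the group mean (horizontal line) and SD (bar), n = 3 a group, groups SF/HA-HEP-PAM, SF/HA, Alkali-burned and Control from left to right. Lgals1 separates the groups, with 122 to 196 FPKM in Alkali-burned libraries and 26.4 to 43.9 FPKM in SF/HA-HEP-PAM libraries, while the points of the other galectins overlap in most comparisons.

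Lgals1 was the galectin that moved with the groups. Its level was 36.4, 43.9 and 26.4 FPKM in the SF/HA-HEP-PAM libraries, 108, 67.7 and 137 FPKM in the SF/HA libraries, 196, 122 and 132 FPKM in the Alkali-burned libraries, and 61.2, 26.6 and 40.9 FPKM in the Control libraries. The SF/HA-HEP-PAM and Control libraries were low and overlapped each other; the SF/HA and Alkali-burned libraries were high and overlapped each other. No library of the low groups reached the lowest library of the high groups. Non-overlap was found for 29.1% of tested genes in Alkali-burned against Control and 22% in SF/HA against Control. It was found for 47.5% in SF/HA-HEP-PAM against Alkali-burned and 31.3% in SF/HA-HEP-PAM against SF/HA. Group means were 35.6 ± 8.74 FPKM in SF/HA-HEP-PAM, 104 ± 34.6 FPKM in SF/HA, 149.96 ± 39.9 FPKM in Alkali-burned and 42.9 ± 17.4 FPKM in Control (SD, n = 3 each). These values rest on 164 to 1596 reads a library.

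Differences between groups were tested with limma on log2(FPKM + 1) over all 6112 genes, with Benjamini-Hochberg adjustment, and a gene was called at an adjusted p below 0.05 and a log2 difference above 1 or below -1. On this scale the change of genes near 1 FPKM is understated. Lgals1 rose in Alkali-burned against Control, by 1.83 (SE 0.35, limma adjusted p = 0.0107), or 3.49 times on the mean FPKM. It was the only galectin of 5 called in that comparison, in which 5.69% of all tested genes were called, 4.42% higher and 1.28% lower. Lgals1 fell in SF/HA-HEP-PAM against Alkali-burned, with a difference of -2.04 (SE 0.35, limma adjusted p = 0.00271), a mean level 0.237 times that of the burn. Again it was the only galectin of 5 called, against a background of 11.1% of tested genes, 7.38% higher and 3.71% lower.

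The patches differed in Lgals1. It was lower in SF/HA-HEP-PAM than in SF/HA, with a difference of -1.49 (SE 0.35, limma adjusted p = 0.0284), and the libraries did not overlap, as was so of 31.3% of tested genes; 1 galectin of 5 was called where 4.37% of tested genes were, 3.84% higher and 0.524% lower. That call was lost without any 1 of the SF/HA-HEP-PAM libraries or without SF/HA replicate 1 or 3, with adjusted p of 0.0505 to 0.119, while the difference stayed between -1.66 and -1.27. The all-gene median of this comparison was itself 0.13, and that of SF/HA-HEP-PAM against Control 0.14, so Lgals1 lay lower still against the typical gene. Both patch groups are set against the same Alkali-burned and Control libraries.

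In SF/HA against Alkali-burned, Lgals1 differed by -0.55 with a 95% interval of -1.32 to 0.22 (limma adjusted p = 0.472), an interval that still allows a fall of more than 1. In that comparison 0 of 5 galectins were called by limma, 0 had an unadjusted p below 0.05 and 0 were called by voom, a weighted fit on the recovered reads; 2.44% of all tested genes were called, 0.376% higher and 2.06% lower. In SF/HA against Control, Lgals1 was 1.28 higher (SE 0.35, limma adjusted p = 0.0563) in libraries that did not overlap, as was so of 22% of tested genes. There 0 of 5 galectins were called by limma, 1 had an unadjusted p below 0.05 and 1, Lgals1, was called by voom, against 4.56% of all genes, 3.19% higher and 1.37% lower; without Control replicate 1 the Lgals1 difference was 1.57 and passed (adjusted p = 0.0229), as it did at 1.56 without SF/HA replicate 2 (adjusted p = 0.0408). In SF/HA-HEP-PAM against Control, Lgals1 differed by -0.22 with an interval of -0.99 to 0.56 (limma adjusted p = 0.708), and 0 of 5 galectins were called by limma or voom, with 2 at an unadjusted p below 0.05 and 11.6% of all genes called, 9.21% higher and 2.39% lower.

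**Figure D2:**
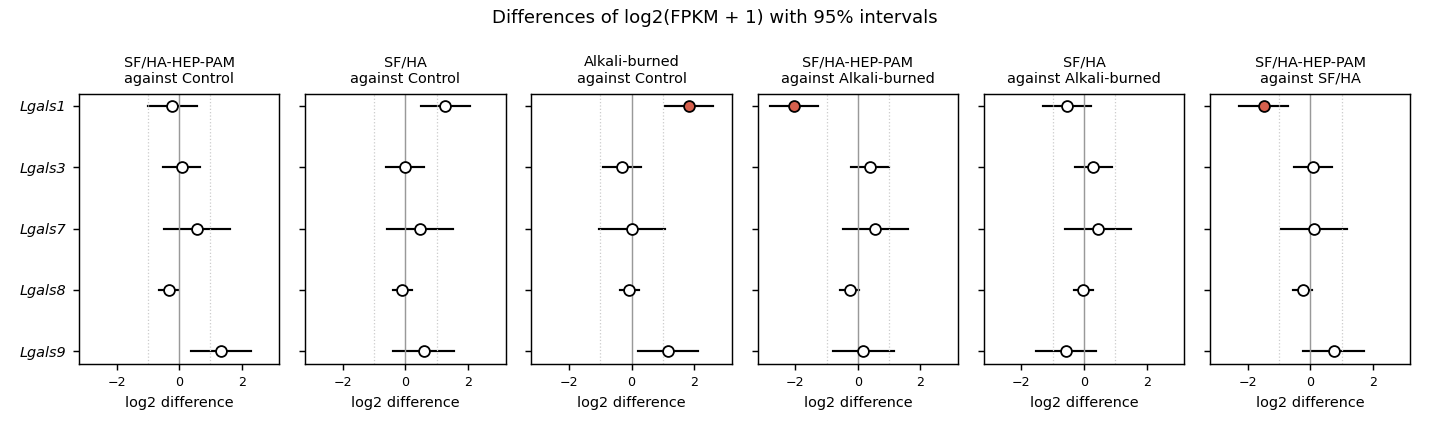
Log2 difference of each galectin in 6 comparisons of groups, first group minus second, with its 95% interval on the log2(FPKM + 1) scale. Lgals1 in Alkali-burned against Control (1.83), SF/HA-HEP-PAM against Alkali-burned (-2.04) and SF/HA-HEP-PAM against SF/HA (-1.49) passed the call, and no other galectin did.

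Over all 4 groups together, limma's F-test passed for Lgals1 (adjusted p = 0.00457) and for none of the other 4, whose adjusted p was 0.111 for Lgals9, 0.25 for Lgals8, 0.613 for Lgals7 and 0.623 for Lgals3; 26.7% of all tested genes passed.

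Markers of stroma and of macrophages, cell types that express galectin-1, differed between groups too. The 14 stromal markers summed to 765 to 1268 FPKM in SF/HA-HEP-PAM libraries, 2067 to 2297 in SF/HA, 1703 to 2238 in Alkali-burned and 2060 to 5386 in Control. The Control maximum came from replicate 1, the library unlike its group; without it the Control sums were 2060 and 2359 FPKM. The sums were lowest in SF/HA-HEP-PAM, where mean Lgals1 was lowest, and the remaining Control sums overlapped those of SF/HA and Alkali-burned, although Lgals1 was lower in Control. Of 13 stromal markers tested in Alkali-burned against Control, 4 fell and 2 rose, where 5.69% of all tested genes were called. Among those that fell were Angptl7, a secreted keratocyte protein (difference -4.42, limma adjusted p = 0.000314), the collagen chain Col1a1 (-1.91, adjusted p = 0.0103) and Kera (-1.85, adjusted p = 0.014). The 2 that rose, Tagln (4.42, adjusted p = 0.000537) and Acta2 (2.97, adjusted p = 0.00677), encode proteins of contractile fibroblasts and smooth muscle. In SF/HA-HEP-PAM against Alkali-burned, 4 of the 13 fell, where 11.1% of all tested genes were called. The 14 macrophage markers summed to 221 to 233 FPKM in SF/HA-HEP-PAM, 230 to 450 in SF/HA, 304 to 379 in Alkali-burned and 96.1 to 131 in Control. Cd68, a lysosomal protein of macrophages, averaged 55.6 ± 8.80 FPKM in SF/HA-HEP-PAM, 69.1 ± 11.7 in SF/HA, 176 ± 23.3 in Alkali-burned and 65.6 ± 15.9 in Control (SD, n = 3 each), highest in the burn as Lgals1 was. Other macrophage markers had another order: Lyz2, the macrophage lysozyme, averaged 49.1 ± 8.69 FPKM in SF/HA-HEP-PAM, 67.3 ± 28.2 in SF/HA, 37.5 ± 1.55 in Alkali-burned and 5.32 ± 1.63 in Control. The complement chain C1qa averaged 17.6 ± 5.51 FPKM in SF/HA-HEP-PAM, 32.0 ± 13.3 in SF/HA, 17.0 ± 2.49 in Alkali-burned and 2.63 ± 1.41 in Control (SD, n = 3 each for both). No stromal marker was at 0 in any whole group, and 1 macrophage marker was at 0 throughout Control. The part of these cell types in the Lgals1 result was not tested.

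Lgals3, the mucin-binding galectin of the epithelial surface, did not separate the groups. It stood at 49.5, 66.8 and 59.6 FPKM in SF/HA-HEP-PAM libraries, 60.0, 54.0 and 50.7 FPKM in SF/HA, 37.3, 47.7 and 48.9 FPKM in Alkali-burned, and 33.1, 74.5 and 67.6 FPKM in Control. Control held both the lowest and the highest library, and replicate 1, the library unlike its group, was the low one. The Alkali-burned mean was the lowest, 44.7 ± 6.36 FPKM, against 58.6 ± 8.72 in SF/HA-HEP-PAM, 54.9 ± 4.72 in SF/HA and 58.4 ± 22.2 in Control (SD, n = 3 each). Every Alkali-burned library lay under every library of both patches, but in these comparisons the difference of 0.38 for SF/HA-HEP-PAM (adjusted p = 0.345) and of 0.30 for SF/HA (adjusted p = 0.655) was not called by limma. Non-overlap of this kind was found for 47.5% and 23.1% of tested genes.

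Lgals7, a galectin of stratified epithelia, had the highest FPKM of the family and the widest spread. It stood at 125, 352 and 187 FPKM in SF/HA-HEP-PAM libraries, 171, 184 and 207 FPKM in SF/HA, 97.1, 155 and 170 FPKM in Alkali-burned, and 65.3, 156 and 241 FPKM in Control. Libraries within a group differed as much as the groups did, apart from SF/HA, whose libraries lay just above all Alkali-burned ones, and Control replicate 1 was the lowest of all 12. Non-overlap between SF/HA and Alkali-burned was found for 23.1% of tested genes. Means were 222 ± 117 FPKM in SF/HA-HEP-PAM, 188 ± 18.1 in SF/HA, 141 ± 38.5 in Alkali-burned and 154 ± 87.6 in Control (SD, n = 3 each). No Lgals7 comparison was called by limma; the 95% interval of SF/HA-HEP-PAM against Control, for example, was -0.47 to 1.63 around 0.58, which includes a rise past the call.

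Lgals3 and Lgals7 had like profiles across libraries: their log2 levels had Pearson r = 0.80 and Spearman rho = 0.71 over 12 libraries, as a description. The samples share a scaling and a tissue makeup. Lgals3 had r = 0.72 with Krt12 and 0.66 with the basal keratin Krt5, while Lgals7 had only 0.36 and 0.30. Lgals1 went the other way from Lgals3, with r = -0.57. It had r = -0.73 with Krt12, -0.83 with Krt5, 0.62 with Cd68 and -0.11 with Col1a1.

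Lgals9 was lowest in Control. It stood at 5.82, 1.50 and 0.767 FPKM in SF/HA-HEP-PAM libraries, 0.455, 0.957 and 1.22 FPKM in SF/HA, 0.999, 2.40 and 2.07 FPKM in Alkali-burned, and 0, 0.196 and 0.556 FPKM in Control. Control replicate 1 had no Lgals9 read, which at its depth allows up to 0.268 FPKM by a limit of 3 reads, for counting error only. SF/HA-HEP-PAM replicate 1 stood far above the other 11 libraries. All SF/HA-HEP-PAM and all Alkali-burned libraries were above all Control libraries, while SF/HA overlapped Control. Such non-overlap with Control was found for 38.9% of tested genes in SF/HA-HEP-PAM and 29.1% in Alkali-burned. The mean was 2.70 ± 2.73 FPKM in SF/HA-HEP-PAM, 0.879 ± 0.391 in SF/HA, 1.82 ± 0.733 in Alkali-burned and 0.251 ± 0.282 in Control (SD, n = 3 each).

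The difference of Lgals9 from Control did not pass in any group: it was 1.34 (SE 0.44, limma adjusted p = 0.0519) for SF/HA-HEP-PAM, 1.16 (SE 0.44, adjusted p = 0.137) for Alkali-burned and 0.59 (SE 0.44, adjusted p = 0.492) for SF/HA. Without SF/HA-HEP-PAM replicate 1 the first of these was 0.77, and without replicate 3 it was 1.75 and was called (adjusted p = 0.0274). Leaving out SF/HA-HEP-PAM replicate 1 also brought the Alkali-burned difference under the threshold, with adjusted p = 0.0308 at the same 1.16. These values rest on 0 to 192 reads a library.

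Lgals8, which marks damaged vesicles for autophagy through the receptor Calcoco2, was the least abundant of the 5 in RPM and FPKM. It stood at 0.566, 0.785 and 0.814 FPKM in SF/HA-HEP-PAM libraries, 1.21, 0.813 and 1.10 FPKM in SF/HA, 0.968, 0.994 and 1.23 FPKM in Alkali-burned, and 1.08, 1.05 and 1.40 FPKM in Control. The SF/HA-HEP-PAM libraries were the low ones, each under every Alkali-burned and every Control library. That difference from Control was -0.34 (SE 0.14, limma adjusted p = 0.11) and was not called; 38.9% of tested genes did not overlap in this comparison and 47.5% in SF/HA-HEP-PAM against Alkali-burned. Lgals8 rests on 10 to 41 reads a library. In voom and after quantile normalization its F-test over the 4 groups passed, with adjusted p of 0.0354 and 0.0217. Over 10 alternative settings its SF/HA-HEP-PAM difference from Control lay between -0.95 and -0.11, with limma adjusted p of 0.00893 to 0.174. From Alkali-burned it lay between -0.74 and -0.084 (0.0302 to 0.221), and from SF/HA between -0.80 and -0.078 (0.0435 to 0.363). None of these passed the fold asked.

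The genes whose levels followed each galectin most closely were picked as the 4 highest Pearson correlations of log2(FPKM + 1) over 12 libraries, among genes averaging at least 5 FPKM. For Lgals1 these were AC099450.1 (r = 0.98), the heparin-binding growth factor Mdk (0.96), the collagen-binding proteoglycan Fmod (0.96) and AABR07060778.1 (0.95). For Lgals9 they were Ly6e (0.94), Bst2 (0.89), Ogfr (0.88) and Birc3 (0.83); Ly6e and Bst2 are interferon-inducible membrane proteins. Lgals8 was followed by Cox6c (0.90), Elof1 (0.89), Uqcr10 (0.87) and Atp5mg (0.87), of which Cox6c, Uqcr10 and Atp5mg belong to the mitochondrial respiratory chain and ATP synthase. Lgals3 was followed by R3hdm4 (0.94), Dctn2 (0.92), Cstb (0.90) and Kcnk7 (0.90). Lgals7 was followed by Dctn2 (0.87), Krt71 (0.86), Cstb (0.81) and Lgals3 (0.80), so Dctn2, a dynactin subunit, and Cstb, an inhibitor of cysteine cathepsins, are near both. The likeness is a description over libraries that share groups and scaling.

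Of the remaining family members, Lgals2 had no read in any library, Lgals4 and Lgals5 had at most 2 reads, and Lgals12 and Grifin had at most 1. The list of other galectin-family and galectin-binding genes held 7, of which Lgals3bp and Lgalsl were tested.

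Lgals3bp was higher than Control in every other group. It stood at 20.4, 9.04 and 8.24 FPKM in SF/HA-HEP-PAM libraries, 11.2, 7.07 and 14.4 FPKM in SF/HA, 19.8, 17.3 and 18.5 FPKM in Alkali-burned, and 4.62, 2.29 and 2.84 FPKM in Control. All 9 libraries outside Control were above all 3 Control libraries. Non-overlap with Control was found for 38.9% of tested genes in SF/HA-HEP-PAM, 22% in SF/HA and 29.1% in Alkali-burned. Lgals3bp rose by 1.60 in SF/HA-HEP-PAM (limma adjusted p = 0.00891), 1.47 in SF/HA (adjusted p = 0.0309) and 2.23 in Alkali-burned (adjusted p = 0.00414), each against the same Control libraries. The SF/HA call was lost when SF/HA replicate 1 or 3, Alkali-burned replicate 3, or Control replicate 2 or 3 was left out, with adjusted p of 0.0504 to 0.109. Between patch and burn, the difference was -0.63 for SF/HA-HEP-PAM (adjusted p = 0.216), or -1.02 and called without its replicate 1 (adjusted p = 0.0477), and -0.76 for SF/HA (adjusted p = 0.3). Lgals3bp overlaps Cant1 on the same strand, which was at most 0.164 FPKM.

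Lgals9 and Lgals3bp had Pearson r = 0.74 and Spearman rho = 0.80 over 12 libraries. Both were picked for printing partly because their lowest group mean was in Control. Some likeness over these same libraries was therefore built into the choice, and a link to the motif was not tested. SF/HA-HEP-PAM replicate 1 was the highest library of both.

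Lgalsl, a galectin-related protein that does not bind lactose, was low in burned corneas. It stood at 4.28, 5.91 and 7.94 FPKM in SF/HA-HEP-PAM libraries, 4.87, 3.76 and 1.83 FPKM in SF/HA, 1.81, 1.29 and 1.75 FPKM in Alkali-burned, and 3.86, 6.35 and 5.67 FPKM in Control. Every Alkali-burned library was under every other library, by little in the case of SF/HA replicate 3. Non-overlap with Alkali-burned was found for 29.1% of tested genes in Control, 47.5% in SF/HA-HEP-PAM and 23.1% in SF/HA. Lgalsl fell by 1.25 in Alkali-burned against Control (limma adjusted p = 0.0227) and was 1.40 higher in SF/HA-HEP-PAM than in Alkali-burned (adjusted p = 0.00673). That call was lost without the 4 libraries found apart in an earlier analysis (SF/HA-HEP-PAM replicate 3, SF/HA replicate 2, Alkali-burned replicate 1 and Control replicate 1), at 1.27 (adjusted p = 0.0523), and with a pseudocount of 5, at 0.73. In SF/HA it was 0.72 higher than in the burn, which was not called (adjusted p = 0.234). The fall against Control was lost when any 1 Alkali-burned library or Control replicate 2 or 3 was left out, with adjusted p of 0.0548 to 0.0806. Across libraries Lgalsl went opposite to Lgals1, with Pearson r = -0.88 and Spearman rho = -0.85.

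**Figure D3:**
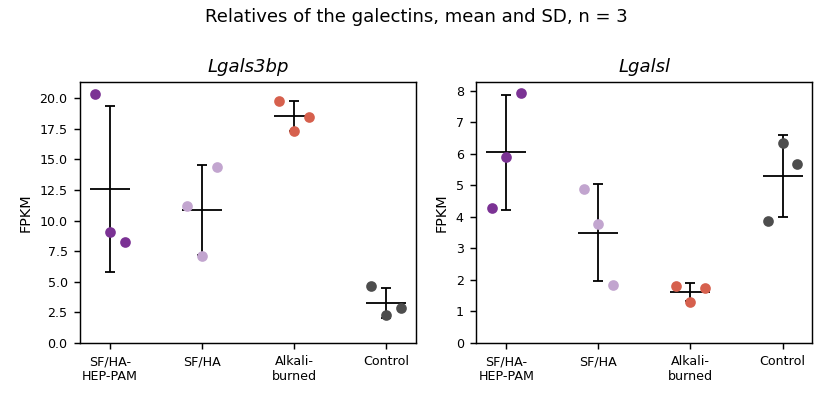
FPKM of Lgals3bp and Lgalsl in each library (points) with the group mean and SD, n = 3 a group, groups SF/HA-HEP-PAM, SF/HA, Alkali-burned and Control from left to right. Lgals3bp is lowest in Control at 2.29 to 4.62 FPKM, and Lgalsl is lowest in Alkali-burned at 1.29 to 1.81 FPKM.

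Of 27 listed galectin counter-receptors and glycoproteins, 16 were tested, and a mucin was low in both patch groups. The other listed mucins, Muc1, Muc4 and Muc16, were not among those tested. Whether a galectin binds Muc20 in these corneas was not tested. Muc20, a membrane mucin, stood at 6.07, 6.79 and 8.91 FPKM in SF/HA-HEP-PAM libraries, 12.1, 6.29 and 25.2 FPKM in SF/HA, 61.9, 86.8 and 84.7 FPKM in Alkali-burned, and 32.0, 41.5 and 43.6 FPKM in Control. Every patch library was under every burned and every Control library. Of tested genes, 47.5% did not overlap in SF/HA-HEP-PAM and 23.1% in SF/HA, each against Alkali-burned. Against Control the shares were 38.9% in SF/HA-HEP-PAM and 22% in SF/HA. Muc20 fell, with a difference of -3.25 in SF/HA-HEP-PAM against Alkali-burned (limma adjusted p = 0.000385), of -2.52 in SF/HA against Alkali-burned (adjusted p = 0.00612) and of -2.28 in SF/HA-HEP-PAM against Control (adjusted p = 0.00282). When only the 2 groups compared were fitted, the SF/HA against Alkali-burned call was lost (adjusted p = 0.0798). The difference of -1.55 in SF/HA against Control (adjusted p = 0.0387) was lost without SF/HA replicate 1 or 2, Control replicate 2 or 3, Alkali-burned replicate 2 or 3, or SF/HA-HEP-PAM replicate 1 or 2, with adjusted p of 0.0512 to 0.112.

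For SF/HA-HEP-PAM against Control the ligand list had 3 members called higher, Itgav and Slc3a2 among them, and 1, Muc20, called lower, with 12 not called. Itgav, an integrin chain that binds vitronectin and fibronectin, stood at 2.27, 1.85 and 3.39 FPKM in SF/HA-HEP-PAM libraries and 0.721, 0.625 and 0.523 FPKM in Control. It passed the filter of 1 FPKM in 3 libraries through SF/HA-HEP-PAM, the group where it is high, so its call is partly set by the filter. Its difference was 1.09 (adjusted p = 0.00206), and by 0.91, under the fold asked, without SF/HA-HEP-PAM replicate 3. Slc3a2, the heavy chain CD98 that galectin-3 binds, rose by 1.08 (adjusted p = 0.000353). With median-of-ratios scaling both stayed under the fold asked, Itgav at 0.96 and Slc3a2 at 0.89. So they did with quantile normalization, Itgav at 0.79 and Slc3a2 at 0.96, and Slc3a2 did with voom, at 0.93. The list median was 0.48, against 0.14 for all tested genes, of which 11.6% were called. Slc3a2 was also higher than Control in SF/HA (0.70, limma adjusted p = 0.0073) and in Alkali-burned (0.56, adjusted p = 0.0166), under the fold asked.

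In the other comparisons few ligands passed. Of all tested genes, 4.56% were called in SF/HA against Control and 5.69% in Alkali-burned against Control. The shares were 11.1% in SF/HA-HEP-PAM and 2.44% in SF/HA, each against Alkali-burned. In SF/HA against Control, 1 of 16 rose, Pdpn by 1.30 (adjusted p = 0.0324), and 1 fell, Muc20, with a median of 0.28 against 0.00 for all genes. In Alkali-burned against Control, Pdpn, a mucin-like glycoprotein of fibroblasts and lymphatics, was the 1 of 16 that rose, by 1.15 (adjusted p = 0.0408), with a median of 0.31 against 0.06. The Pdpn call in SF/HA was lost without SF/HA-HEP-PAM replicate 2, SF/HA replicate 2 or 3 or Control replicate 2 or 3 (adjusted p of 0.0502 to 0.112). That in Alkali-burned was lost without any 1 of the SF/HA-HEP-PAM or Alkali-burned libraries, SF/HA replicate 3 or Control replicate 2 or 3 (adjusted p of 0.0544 to 0.136). With SF/HA-HEP-PAM against Alkali-burned, the fall of Muc20 stood beside a list median of 0.13 against 0.04. In SF/HA against Alkali-burned only Muc20 of the 16 was called, with a median of 0.03 against -0.04. The most abundant ligand, Bsg (CD147, an inducer of matrix proteases), averaged 124 FPKM and ranged between 102 and 150 FPKM over the 12 libraries.

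Of 28 listed enzymes that build or cap galectin-binding glycans, 9 were tested. B3gnt7, which extends chains of N-acetyllactosamine, the sugar galectins prefer, fell in SF/HA-HEP-PAM against Control, with a difference of -1.87 (limma adjusted p = 0.0109; 0.0581, and not called, when only these 2 groups were fitted). It stood at 5.13, 4.18 and 2.44 FPKM in SF/HA-HEP-PAM libraries and at 34.4, 8.28 and 15.2 FPKM in Control, so Control replicate 1 was far above the rest. It was the only 1 of 9 called, where 11.6% of all tested genes were, with a list median of 0.34 against 0.14. In Alkali-burned against Control 5.69% of all tested genes were called. There Gcnt3, a mucin-type core enzyme, rose by 1.25 (adjusted p = 0.0275), again 1 of 9, with a median of 0.14 against 0.06. It averaged 3.07 ± 1.05 FPKM in Alkali-burned and 0.679 ± 0.139 FPKM in Control (SD, n = 3 each), on 5 to 62 reads, and the call was lost without Alkali-burned or Control replicate 2 or 3, with adjusted p of 0.0703 to 0.0989. In the other 4 comparisons limma called 0 of 9: voom called 1 in SF/HA against Control, 5 in SF/HA-HEP-PAM against Alkali-burned, 1 in SF/HA against Alkali-burned and 0 in SF/HA-HEP-PAM against SF/HA, where the numbers at an unadjusted p below 0.05 were 2, 5, 1 and 1.

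Of 20 listed genes of vesicle damage, autophagy and lysosomes, 13 were tested, and the called ones were high in the burned corneas. Some of the list, the called ones included, are general genes of autophagy or lysosomes. A link of their levels to galectins was not tested. Map1lc3b (LC3B), the coat protein of autophagosomes, stood at 5.75, 6.79 and 6.75 FPKM in SF/HA-HEP-PAM libraries, 9.69, 7.91 and 11.9 FPKM in SF/HA, 25.6, 28.4 and 28.5 FPKM in Alkali-burned, and 7.60, 10.2 and 9.18 FPKM in Control. Gabarapl2, of the same protein family, stood at 3.37, 2.78 and 2.73 FPKM in SF/HA-HEP-PAM, 5.84, 3.70 and 6.52 FPKM in SF/HA, 16.0, 18.3 and 17.4 FPKM in Alkali-burned, and 5.84, 6.72 and 5.31 FPKM in Control. Ctsb, the lysosomal protease cathepsin B, averaged 73.7 ± 12.2 FPKM in SF/HA-HEP-PAM, 88.5 ± 10.6 in SF/HA, 167 ± 11.7 in Alkali-burned and 70.4 ± 12.5 in Control (SD, n = 3 each). For all 3 genes each burned library was above every library of the other 3 groups. Non-overlap with Alkali-burned was found for 29.1% of tested genes in Control, 47.5% in SF/HA-HEP-PAM and 23.1% in SF/HA. Cd68, a lysosomal protein too, was likewise highest in Alkali-burned libraries, whereas the macrophage marker Lyz2 was not; the part of macrophages here was not tested.

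In Alkali-burned against Control, 3 of these 13 rose and 10 were not called: Map1lc3b by 1.52 (limma adjusted p = 0.000537), Gabarapl2 by 1.39 (adjusted p = 0.00154) and Ctsb by 1.25 (adjusted p = 0.00206). In SF/HA-HEP-PAM against Alkali-burned the same 3 genes fell, with differences of -2.20 for Gabarapl2 (adjusted p = 5.44e-05), -1.94 for Map1lc3b (adjusted p = 6.84e-05) and -1.18 for Ctsb (adjusted p = 0.00128). In SF/HA against Alkali-burned 2 of 13 fell, with differences of -1.55 for Gabarapl2 and -1.41 for Map1lc3b (adjusted p = 0.00183 for both). The list medians of these comparisons were 0.17, -0.12 and -0.12, against 0.06, 0.04 and -0.04 for all genes. Of all tested genes, 5.69%, 11.1% and 2.44% were called in them. Not all members went this way. In SF/HA-HEP-PAM against Alkali-burned, Trim16 (0.66, limma adjusted p = 0.02), Tax1bp1 (0.53, adjusted p = 0.0486) and Pdcd6ip (0.52, adjusted p = 0.0156) were higher, under the fold asked. In the comparisons of a patch with Control and of the patches with each other limma called 0 of 13; voom called 2 for SF/HA-HEP-PAM against Control, 0 for SF/HA against Control and 1 between the patches, and 5, 1 and 6 had an unadjusted p below 0.05. Ctsl, cathepsin L, was the most abundant of the list at 235 FPKM on average, between 140 and 299 FPKM.

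**Figure D4:**
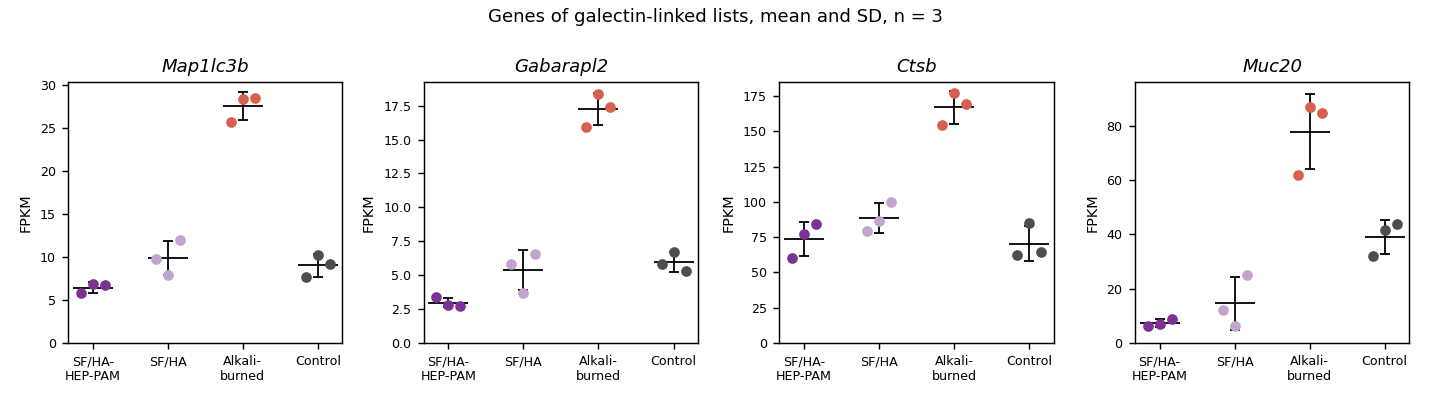
FPKM of Map1lc3b, Gabarapl2, Ctsb and Muc20 in each library (points) with the group mean and SD, n = 3 a group, groups SF/HA-HEP-PAM, SF/HA, Alkali-burned and Control from left to right. All 4 genes are highest in Alkali-burned libraries, with Map1lc3b at 25.6 to 28.5 FPKM there, and Muc20 is lowest in both patch groups at 6.07 to 25.2 FPKM.

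Galectin-3 and galectin-7 are known from epithelial wounds, so epithelial markers are given beside Lgals3 and Lgals7. Which cells of the cornea made these transcripts was not tested. The 13 measured corneal epithelial markers summed to 4696 to 5725 FPKM in SF/HA-HEP-PAM libraries, 3380 to 4787 in SF/HA, 2492 to 4054 in Alkali-burned and 4448 to 8193 in Control. The 14 markers of suprabasal and stressed epithelium summed to 2217 to 5690 FPKM in SF/HA-HEP-PAM, 1704 to 3135 in SF/HA, 2055 to 2839 in Alkali-burned and 815 to 1525 in Control. Neutrophil markers varied widely within groups, with sums of 865 to 9754 FPKM in SF/HA-HEP-PAM, 792 to 8699 in SF/HA, 551 to 3566 in Alkali-burned and 155 to 198 in Control. The sums of lymphocyte markers reached at most 7.82 FPKM, those of vascular endothelium 2.54 FPKM and those of conjunctival goblet cells 4.15 FPKM. The part of any of these cell types in the levels of Lgals3, Lgals7 or Lgals9 was not tested.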

How the data were processed

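RNA sequencing of 12 rat cornea libraries, 3 a group, was grouped by the labels. Per the labels' protocols, cDNA was primed with barcoded poly(dT) primers carrying molecular identifiers; whether duplicates were collapsed is not given in the sources used here. The deposited values are FPKM, made by the authors from reads trimmed with fastp; per the series text genes were counted with HTSeq-count, whereas the submitters' processing notes name STAR and featureCounts, on build mRatBN7.2. Use of strand is not stated.

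FPKM divides by genomic span in all 30452 genes, which understates genes with long introns. FPKM times length gave whole reads (largest deviation 3.51e-06), 486264 to 2117399 a library; 108 lines naming no gene were left out. The 95% intervals come from the limma fit and cover the spread between libraries. The floors, set at 3 reads, cover counting error only.

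limma 3.58.1 in R 4.3.3 fitted 4 group means to log2(FPKM + 1) with a variance trend, for 6112 genes with at least 1 FPKM in 3 libraries. The fit was tested on simulated data. voom on the recovered reads covered 8653 genes. Figures used matplotlib 3.10.9 in Python 3.11.15. The members and lists were chosen with earlier results of these data known. All 5 galectins are named in every comparison. Of each list, the called members (up to 4 a comparison, by size) and the most abundant are named, and defining markers of cell types. Trim16, Tax1bp1 and Pdcd6ip are also named, as uncalled vesicle-list genes with an adjusted p below 0.05 in SF/HA-HEP-PAM against Alkali-burned. A called gene of the ligand list is not reported here. Alternatives were 11 settings and leaving out each of 12 libraries.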

Additional observations from a re-analysis of the deposited data

Results flagged for a closer look

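Lgals1 differed between the 2 patch groups. Setting each group against the same Alkali-burned libraries leaves that difference unchanged, so it is the direct comparison of the patches reported above. The difference, SF/HA-HEP-PAM minus SF/HA, was -1.49 on the log2(FPKM + 1) scale (SE 0.35, limma adjusted p = 0.0284), with lower Lgals1 in 3 of 3 SF/HA-HEP-PAM libraries than in any SF/HA library. A test of the difference itself brought it here, and that test is not a further result. The call did not hold in every fit. Dropping any 1 SF/HA-HEP-PAM library, or SF/HA replicate 1 or 3, raised the limma adjusted p to between 0.0505 and 0.119. Removing the filter on low values gave 0.0565, and a fit restricted to the 2 patch groups gave 0.0561. No explanation was tested.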

How the results depend on the processing

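Counts of called galectins moved by 1 under some settings. In SF/HA-HEP-PAM against Control the count of 0 became 1 (Lgals9) with a pseudocount of 0.1. In SF/HA against Control 0 became 1 (Lgals1) with a filter of 5 FPKM, with median-of-ratios scaling, with voom, with library weights and without the 4 libraries an earlier analysis found apart (SF/HA-HEP-PAM replicate 3, SF/HA replicate 2, Alkali-burned replicate 1 and Control replicate 1). In SF/HA-HEP-PAM against SF/HA 1 became 0 with no filter (Lgals1 adjusted p = 0.0565) and when just the libraries compared were fitted (0.0561). The F-test count of 1 became 2 with quantile normalization and with voom, Lgals8 being added. Leaving out each of 12 libraries gave 0 to 1, 0 to 1, 1 to 2, 1 to 1, 0 to 0 and 0 to 1 galectins in the comparisons SF/HA-HEP-PAM, SF/HA and Alkali-burned against Control, SF/HA-HEP-PAM and SF/HA against Alkali-burned, and SF/HA-HEP-PAM against SF/HA, and 1 to 1 in the F-test. Lgals1 kept its call in all 23 alternatives in Alkali-burned against Control and in SF/HA-HEP-PAM against Alkali-burned.

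Small log2 differences, none of them called, turned sign. For SF/HA-HEP-PAM against Control, Lgals1 was 0.053 with library weights and 0.27 without the 4 libraries (-0.51 to 0.075 leaving out 1), and Lgals3 was -0.13 with median-of-ratios scaling, -0.064 with quantile normalization, -0.12 with voom, -0.14 with library weights and -0.30 without the 4 (-0.28 to 0.29). For SF/HA against Control, Lgals3 was 0.0034 with median-of-ratios scaling and 0.023 with voom (-0.37 to 0.20), and Lgals7 -0.040 without the 4 (-0.051 to 0.88). For Alkali-burned against Control, Lgals7 was -0.19 with quantile normalization, -0.035 with voom, -0.28 with library weights and -0.25 without the 4 (-0.50 to 0.43). For SF/HA-HEP-PAM against SF/HA, median-of-ratios scaling and voom gave -0.13 and -0.14 for Lgals3 (-0.013 to 0.20) and -0.10 and -0.12 for Lgals7 (-0.29 to 0.45). For SF/HA against Alkali-burned, Lgals8 was 0.068 with quantile normalization, 0.058 with voom and 0.032 without the 4 (-0.079 to 0.065). For SF/HA-HEP-PAM against Alkali-burned, Lgals9 was -0.020 with voom (-0.39 to 0.58). The cause was not tested.

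Over all genes, limma called 709, 279, 348, 678, 149 and 267 in the 6 comparisons in the order above; voom called 1375, 420, 653, 1804, 224 and 736, a pseudocount of 5 called 345, 139, 188, 336, 89 and 143, and fitting only the compared libraries 614, 93, 243, 741, 71 and 181. Without a filter they were 596, 174, 217, 561, 88 and 195. A replicate block changed none of the galectin counts, which were 0, 0, 1, 1, 0 and 1; under it Pdpn in Alkali-burned against Control (adjusted p = 0.0528) lost its call, and no other call of a gene named from the galectin lists was lost. Same-numbered libraries correlated above 0.1 in 2 of 18 pairs (-0.09 to 0.15). Differently numbered libraries reached 0.16, so this check cannot tell whether the numbers pair the samples. Lgals8 had 10 to 41 and Lgals9 0 to 192 reads a library. Against Control, fitting just the libraries compared also ended the calls of Lgals3bp (adjusted p = 0.115), Muc20 (0.208) and Pdpn (0.179) in SF/HA and of Pdpn in Alkali-burned (0.153); no filter ended those too (0.0853, 0.103, 0.0853 and 0.106), and those of Lgalsl (0.0637) and Gcnt3 (0.0726) in Alkali-burned. With a pseudocount of 5, Lgals3bp (0.93) and Pdpn (0.86) in SF/HA, Lgalsl (-0.63), Pdpn (0.75) and Gcnt3 (0.50) in Alkali-burned, and Itgav (0.41) and Slc3a2 (0.92) in SF/HA-HEP-PAM stayed under the fold asked. Quantile normalization ended the calls of Pdpn (limma adjusted p = 0.0656) and Gcnt3 (0.0717) in Alkali-burned against Control.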
